A study of Rattus norvegicus with 113 samples.

Results

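The cortex of rats 2 weeks after traumatic brain injury (TBI) was compared with that of sham-operated rats, across the genes of a whole-genome expression array. The comparison used 7 of the 113 arrays in the series, taken by their titles: TBI replicates 1 to 4 and sham replicates 1, 2 and 4. Sham replicate 3 was left out because 93.0% of its probes were well above background, against 42.3% to 50.2% on the other sham arrays. TBI rats were adult male Sprague-Dawley rats that were anesthetized, had the skull opened and received a parasagittal fluid-percussion injury, which the sample labels call moderate and the methods severe. Sham rats had the same anesthesia and surgery without the fluid pulse. Naive rats, 4 at the same interval, had neither anesthesia nor handling. A small piece of cortex near the injury site was taken from each rat, and the hippocampus of the same rats was hybridized on other arrays.

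A fluid-percussion pulse deforms the brain and kills or disconnects neurons near the impact. Microglia, the resident macrophages of the brain, then multiply, take up debris and switch on genes for complement, antigen presentation and lysosomal digestion, while blood-borne monocytes can enter and express many of the same genes. Astrocytes respond with intermediate filaments and secreted acute-phase proteins, and interferons induce a set of antiviral genes in nearly every cell type. In homogenized tissue, a change in the number of cells of a type cannot be told apart from a change in RNA per cell.

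Each value below is the log2 processed signal of a probe relative to the median of the probes detected on every cortex array of the interval, so 0 is the level of a typical detected probe. The share of probes well above background was 53.6% to 56.4% on the TBI arrays and 53.7% to 65.2% on the naive arrays. The mean signal of the negative controls was 82.5 to 126 on the sham arrays, 57.7 to 69.0 on the TBI arrays and 62.6 to 120.0 on the naive arrays. The part of this difference in which genes were above background was not tested. On the first principal component, with 34.6% of the variance, the 4 TBI arrays scored 21.8 to 51.5 and the sham and naive arrays -49.6 to -10.7. The lowest TBI score was that of replicate 3, and naive replicate 4 stood apart on the second component. The TBI arrays were on a slide without sham or naive arrays of this interval, while sham and naive arrays shared 1 slide, so slide and injury cannot be told apart.

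Among the genes that the filter on dim probes let in, many more had a large rise than a large fall, and the balance of rises and falls moved with that filter. Of 23521 probes tested with limma, 1962 (8.34%) passed an adjusted p of 0.05, 1121 (4.77%) higher and 841 (3.58%) lower in TBI. Among 11031 named genes, each read from its brightest probe, 1062 (9.63%) were called, 608 (5.51%) higher and 4.12% lower. The median change was 1.04 log2 units for the genes called higher, and 97 of them rose by more than 2 units. For the genes called lower the median was -0.45, and 4 of them fell by more than 1 unit. The median over all named genes tested was -0.03. The filter let in 1456 named genes above background throughout TBI only, of which 149 were called higher, and 3 throughout sham only. List counts below are therefore given first for the 9572 named genes above background on every TBI and every sham array. Of these, 459 (4.80%) were called higher and 450 (4.70%) lower.

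**Figure D1:**
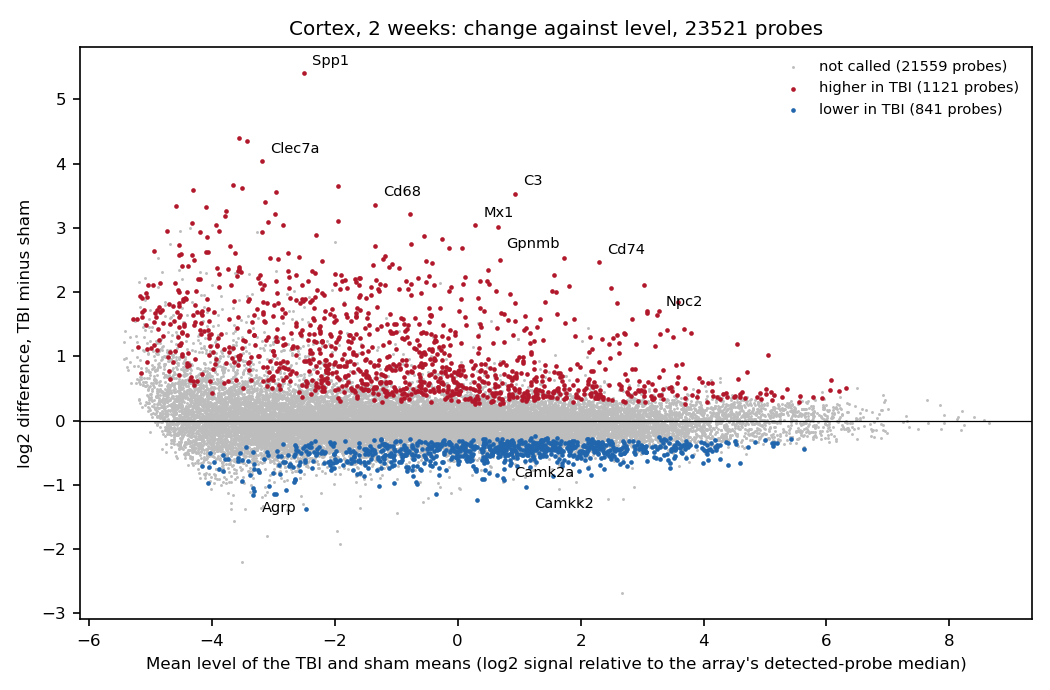
Log2 difference between TBI and sham means (vertical axis) against the mean log2 relative signal of both groups (horizontal axis) for the 23521 tested probes, with 1121 called higher in red, 841 called lower in blue and the others in gray. Spp1 lies highest, at a fitted 5.41, and C3 at 3.53, while most blue points lie close under 0.

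The counts moved with the sham arrays. Putting sham replicate 3 back left 104 probes called, 103 of them higher. Leaving out sham replicate 1, 2 or 4 left 619, 663 or 703 probes, and leaving out TBI replicate 1, 2 or 4 left 1008, 750 or 916. The falls moved most: they numbered 138, 194 and 154 without sham replicate 1, 2 or 4, 375, 214 and 327 without TBI replicate 1, 2 or 4, 522 without naive replicate 1, and 7 when arrays were scaled to the median of all probes instead of the detected ones. The rises numbered 481, 469 and 549 without sham replicate 1, 2 or 4, 633, 536 and 589 without TBI replicate 1, 2 or 4, and 502 under that scaling.

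**Figure D2:**
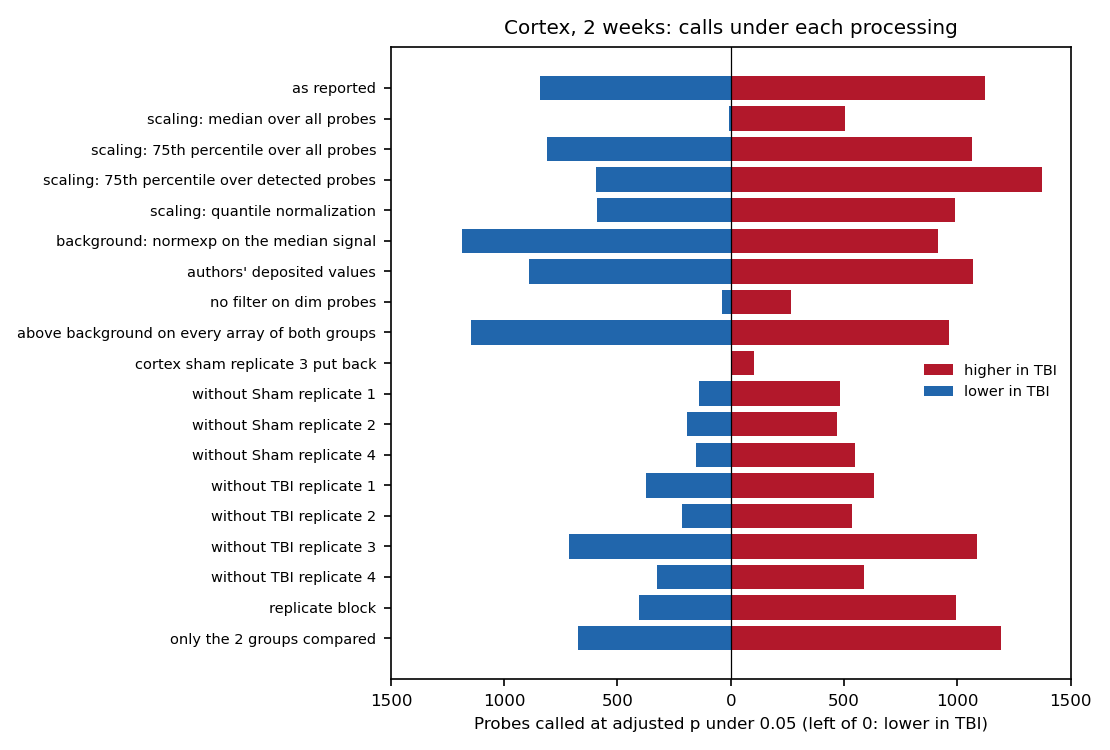
Number of probes called higher (red, right of 0) and lower (blue, left of 0) in TBI at an adjusted p under 0.05, for the processing as reported and for each alternative. Rises outnumber falls in the reported setting (1121 and 841) and in most alternatives, the exceptions being normexp background correction (913 and 1186) and the stricter filter on dim probes (965 and 1145).

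Surgery alone left almost no trace that passed the test. Between the sham and naive cortex, limma called 1 of 22552 probes (0.00443%), with 3292 at an unadjusted p under 0.05. For the 608 genes higher in TBI, all TBI arrays also lay above all 4 naive arrays in 492 (80.9%), against 10.8% of all named genes tested, and the median distance of the TBI mean was 1.04 from sham and 1.01 from naive. For the genes lower in TBI, all TBI arrays lay below all naive arrays in 271 (59.7%), against 10.7% of all named genes tested, and the median distance was -0.45 from sham and -0.29 from naive. The sham mean exceeded the naive mean in 395 of those genes, and in 5708 of the 11031 named genes tested. Sham arrays chose these genes, so their distance from naive is a description only.

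The microglial and macrophage genes rose as a group. Of 16 listed genes above background in both groups, 14 were called higher and 0 lower, with a median of 1.43, and of 5 above background throughout TBI only, 2 were called. Together 16 of 21 tested genes were called. With sham replicate 3 put back 9 of the 21 were called, and without sham replicate 1 or 2 it was 12. The summed relative signal of the list was 88.6, 78.8, 59.4 and 98.7 on TBI arrays 1 to 4, 31.0, 28.8 and 30.3 on the sham arrays, and 26.9, 33.1, 26.6 and 23.3 on the naive arrays. Every TBI array thus exceeded every sham and naive array, and TBI replicate 3 was the lowest of its group.

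Cd68, a lysosomal membrane protein of phagocytes, read 0.30, 0.78, -0.52 and 0.78 in TBI against -3.12, -3.22 and -2.73 in sham. That was a 10.2-fold rise (3.36 ± 0.30 log2, SE, n = 4 and 3, limma adjusted p = 0.0008028), with 2 of the 3 sham arrays above background. Tyrobp, the signaling adaptor of Trem2, read 4.24, 4.07, 3.64 and 4.39 against 2.04, 1.79 and 2.09. The groups did not overlap, and the rise of 2.11 ± 0.22 log2 was 4.32-fold (adjusted p = 0.001356). Trem2, a lipid and debris receptor, rose by 2.10 ± 0.20 (adjusted p = 0.0009161). Itgam, the CD11b integrin chain, read 1.13, 0.61, -0.74 and 1.61 against -1.54, -2.02 and -1.22, with TBI replicate 3 nearest to sham (2.25 ± 0.47, adjusted p = 0.02099).

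Csf1r, the receptor for the survival factor of microglia, rose by 1.63 ± 0.20, Cx3cr1, the fractalkine receptor, by 1.05 ± 0.16 and Tmem119, a microglial membrane protein, by 0.77 ± 0.17 (adjusted p = 0.002226, 0.005843 and 0.02349). P2ry12, the purinergic receptor of resting microglia, read 2.30, 1.73, 1.97 and 2.41 in TBI and 1.54, 1.43 and 1.26 in sham. Its groups did not overlap, but its difference of 0.69 ± 0.22 missed the threshold (adjusted p = 0.0818). Irf8, a transcription factor of the lineage, was above background on all 4 TBI arrays and on no sham array, and was at least 3.02-fold higher (adjusted p = 0.001538). Such a bound sets the TBI mean against the lowest signal well above background on each sham array, or against the sham signal where that is higher. It is a point value of the reported processing and has no allowance for error or for other processing. Over the alternative settings that filtered dim probes, the fitted rise went down to 1.14 log2 for Irf8. For Spp1, described below, it went down to 3.16, and both values are under the bounds given.

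**Figure D3:**
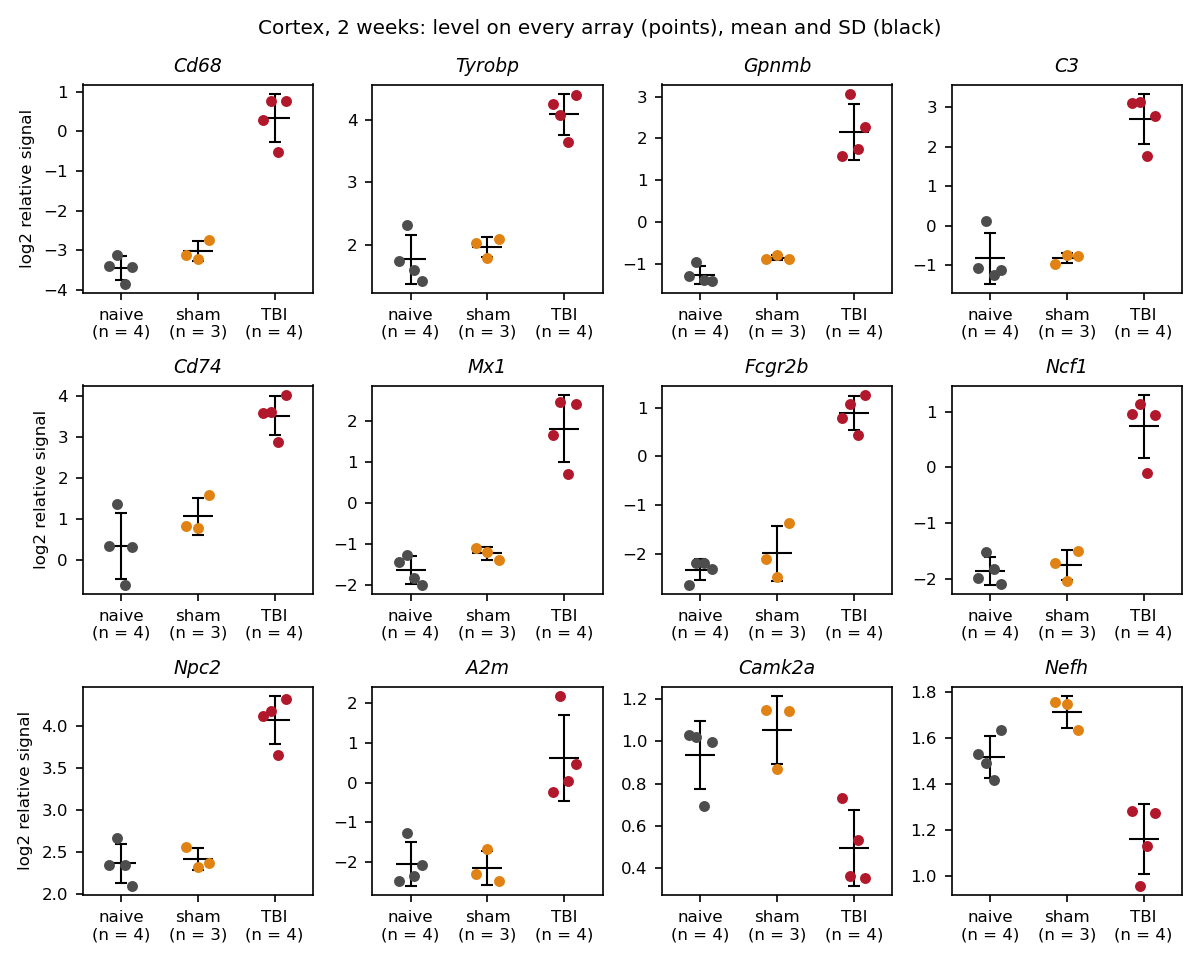
Log2 relative signal of 12 genes on every naive (gray), sham (orange) and TBI (red) array, with the group mean and SD in black; n is 4, 3 and 4. In the first 10 panels all TBI points lie above all sham points, and in Camk2a and Nefh all TBI points lie below them.

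Genes of activated, lipid-handling microglia included Spp1, the probe with the largest fitted rise of those tested. Of 16 listed genes above background in both groups, 11 were called higher and 0 lower (median 0.79), and 3 of 4 detected in TBI only were called. With sham replicate 3 put back, 4 of the 20 tested were called, and without sham replicate 2 it was 9. Spp1, the secreted phosphoprotein osteopontin, read -0.64, 0.23, 0.22 and 1.00 in TBI and -5.88, -5.08 and -4.67 in sham. No sham or naive array was above background, and the rise was at least 17.6-fold (adjusted p = 0.0007633). Sham replicate 3, left out, read -0.98, and with it back the change no longer passed (adjusted p = 0.0678).

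Gpnmb, a transmembrane glycoprotein of lipid-laden macrophages, read 1.57, 3.06, 1.74 and 2.27 against -0.89, -0.78 and -0.89. It rose 8.08-fold (3.01 ± 0.30, adjusted p = 0.0009864), with no overlap. Lgals3, galectin-3, rose 6.46-fold (2.69 ± 0.30), and Clec7a, the beta-glucan receptor Dectin-1, was at least 6.87-fold higher (adjusted p = 0.001524 and 0.003287). Igf1, a growth factor, read 1.00, 1.42, 1.14 and 1.59 in TBI and -0.65, -0.65 and -0.58 in sham. Its 3.77-fold rise had a small error (1.91 ± 0.14, adjusted p = 0.0005879). Apoe, the lipid carrier at the head of this list, differed by 0.32 log2 and did not pass (adjusted p = 0.0988).

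Other genes among the 10 largest rises were dim in sham. Olr1, the receptor for oxidized low-density lipoprotein, was at least 5.97-fold higher, and Timd2, a phosphatidylserine-receptor family member, at least 4.75-fold (adjusted p = 0.000739 and 0.01586). Cd22, an inhibitory receptor of B cells and microglia, F10, coagulation factor X, and Fcrl2, an Fc receptor-like protein, were at least 6.42, 6.53 and 5.66-fold higher (adjusted p = 0.008224, 0.005254 and 0.01886). These last genes were above background on 0 sham arrays and on all 4 naive arrays. Cd22 read -3.13, -4.45, -5.27 and -2.06 in naive and -4.94, -5.35 and -6.55 in sham, against -1.52, -0.45, -2.05 and -1.01 in TBI. The lowest TBI array was level with the highest naive array.

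Complement genes of the classical pathway and its inhibitor rose together. Of 17 listed genes above background in both groups, 11 were called higher and 0 lower (median 1.31). In all 13 of 21 tested were called, 7 with sham replicate 3 put back, and 7 and 6 without sham replicate 1 or 2. C3, the central component that tags debris and synapses, read 3.11, 3.14, 1.77 and 2.78 in TBI and -0.97, -0.75 and -0.77 in sham. It rose 11.6-fold (3.53 ± 0.38, adjusted p = 0.00137), without overlap. The C1q subunits that start the pathway, C1qa, C1qb and C1qc, rose by 1.68 ± 0.31, 1.43 ± 0.21 and 1.31 ± 0.26 (adjusted p = 0.01374, 0.00562 and 0.01765). C2, a protease of the C3 convertase, rose by 2.11 ± 0.37 and Serping1, the C1 inhibitor, by 1.97 ± 0.30 (adjusted p = 0.01065 and 0.00609). Itgb2, the beta chain of complement receptor 3, rose 5.93-fold (2.57 ± 0.36, adjusted p = 0.00454).

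Receptors for the constant part of antibodies moved with them: 5 of 6 listed genes above background in both groups were called higher, with a median of 1.61, and 6 of 9 tested in all, 3 with sham replicate 3 put back. Fcgr2b, the inhibitory receptor, read 0.79, 1.07, 0.45 and 1.26 against -2.09, -2.48 and -1.37. It rose 7.34-fold (2.88 ± 0.26, adjusted p = 0.0008028). Fcgr3a, an activating receptor, rose by 2.21 ± 0.32 and Fcer1g, the signaling chain of these receptors, by 1.85 ± 0.22 (adjusted p = 0.004965 and 0.001939).

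All 7 MHC class II genes above background in both groups were called higher, with a median of 1.75, and 8 of 9 tested in all. With sham replicate 3 put back 3 of the 9 were called, and without sham replicate 1 it was 5. Class II molecules show peptides from engulfed material to helper T cells. Cd74, the invariant chain that guides them, read 3.59, 3.61, 2.89 and 4.04 in TBI and 0.82, 0.79 and 1.60 in sham. It rose 5.51-fold (2.46 ± 0.42, adjusted p = 0.009795), with no overlap. The chains RT1-Da and RT1-Bb rose by 2.35 ± 0.37 and 1.92 ± 0.36 (adjusted p = 0.007445 and 0.01402), and the costimulator Cd86 was at least 3.07-fold higher (adjusted p = 0.001939).

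Of 12 genes of MHC class I and antigen processing above background in both groups, 8 were called higher (median 0.87), and 9 of 14 tested in all, 1 with sham replicate 3 put back and 5 without sham replicate 1 or 2 or TBI replicate 2. RT1-A2 and RT1-A1, class I heavy chains, rose by 2.06 ± 0.41 and 1.71 ± 0.40 (adjusted p = 0.01832 and 0.03081). Probes for class I genes can share sequence, so those changes may not belong to 1 gene each. RT1-CE5 was at least 2.68-fold higher. Psmb8, an immunoproteasome subunit, read 0.86, 1.12, 0.44 and 1.30 against -0.49, -0.82 and -0.73 and rose 3.05-fold (1.61 ± 0.24, adjusted p = 0.006003). B2m, the light chain shared by class I molecules, rose by 0.75 ± 0.14 (adjusted p = 0.0134).

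Interferon-response genes rose together as well. Of 17 genes above background in both groups, 16 were called higher and 0 lower (median 1.76), and 18 of 19 tested in all. This count rested on few arrays: it was 3 with sham replicate 3 put back, 7, 5 and 6 without sham replicate 1, 2 or 4, and 11, 8 and 7 without TBI replicate 1, 2 or 4, although the median with sham replicate 3 was 1.46. Mx1, an antiviral GTPase, read 1.66, 2.44, 0.70 and 2.42 in TBI and -1.12, -1.20 and -1.41 in sham. It rose 8.25-fold (3.04 ± 0.38, adjusted p = 0.002503). Isg15, a ubiquitin-like modifier, rose by 2.49 ± 0.44, and Rsad2, the antiviral enzyme viperin, by 2.38 ± 0.39 (adjusted p = 0.01124 and 0.008256). Cxcl10, a T-cell attractant, was at least 6.19-fold higher (adjusted p = 0.008565). The 1 member that was tested and not called was Irf7, at 2.14 ± 0.62 (adjusted p = 0.0603).

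Promoters of these groups were read from the RefSeq promoter table (GRCr8, 250 bases before to 50 after the start). Of the genes called higher and lower, 486 and 359 had an entry. The interferon-stimulated response element, searched on both strands as GAAA, any 2 bases and GAAA, was in 9.88% of promoters of genes called higher, 1.67% of those called lower and 3.77% of all 27457 promoters. It was in 11 of the 18 promoters of interferon-list genes (61.1%), 9 of 16 of the class I list (56.2%) and 0 of 16 of the microglial list. The PU.1 site, searched as GAGGAAGT, was in 5.76%, 1.11% and 2.44% of the 3 promoter sets. The class II Y box, searched as CTGATTGG, was in 5 of 11 promoters of the class II list (45.5%), 5 of 16 of the class I list (31.2%), 5.97% of promoters of genes called higher, 3.62% of those called lower and 3.55% of all promoters. Among the promoters of all named genes tested, the shares of the response element, the PU.1 site and the Y box were 2.94%, 2.54% and 5.05%. Windows of 1 gene per group are shown with the match in capitals; a match is a string of letters, not a measured site. Rsad2 and Psmb8 (chr6:48788071-48788370 and chr20:4656982-4657281, both minus strand) hold the element on the reverse strand, starting 147 and 4 bases before the start, and RT1-Da (chr20:4515165-4515464, plus strand) holds the Y box 52 bases before it.
Rsad2: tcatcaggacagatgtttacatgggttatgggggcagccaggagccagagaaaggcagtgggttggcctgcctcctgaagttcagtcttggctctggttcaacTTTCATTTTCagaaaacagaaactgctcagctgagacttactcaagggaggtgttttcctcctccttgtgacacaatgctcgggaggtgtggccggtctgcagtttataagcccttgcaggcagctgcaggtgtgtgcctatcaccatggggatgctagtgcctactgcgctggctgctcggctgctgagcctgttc
Psmb8: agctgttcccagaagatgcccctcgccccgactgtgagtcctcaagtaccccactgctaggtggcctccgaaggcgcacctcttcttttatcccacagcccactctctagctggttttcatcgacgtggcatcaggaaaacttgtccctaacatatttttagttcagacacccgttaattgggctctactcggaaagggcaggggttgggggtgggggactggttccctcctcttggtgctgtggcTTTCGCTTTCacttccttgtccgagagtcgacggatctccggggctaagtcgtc
RT1-Da: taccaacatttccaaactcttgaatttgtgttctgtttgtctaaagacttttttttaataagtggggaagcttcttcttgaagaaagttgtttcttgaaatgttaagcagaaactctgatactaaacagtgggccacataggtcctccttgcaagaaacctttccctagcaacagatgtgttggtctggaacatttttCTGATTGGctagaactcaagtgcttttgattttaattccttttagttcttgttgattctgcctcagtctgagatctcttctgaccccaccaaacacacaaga
All these genes were higher in TBI, by 2.38, 1.61 and 2.35 log2 units. Occupancy of these windows was not measured.

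Genes for leukocyte adhesion and the NADPH oxidase, which phagocytes use to make superoxide, were called higher in 7 of 10 cases above background in both groups (median 1.1) and in 10 of 15 tested, 4 with sham replicate 3 put back and 6 without sham replicate 2. Ncf1, a cytosolic oxidase subunit, read 0.96, 1.14, -0.10 and 0.94 against -1.71, -2.04 and -1.51. It rose 5.60-fold (2.48 ± 0.28, adjusted p = 0.001524). Cd44, the hyaluronan receptor, rose by 1.68 ± 0.26 (adjusted p = 0.007111). Rap1b, a small GTPase that activates integrins, rose by only 0.39 ± 0.09 (adjusted p = 0.03176). Vav1, an exchange factor of blood-lineage cells, was at least 2.88-fold higher (adjusted p = 0.004653). Pecam1 and Icam1, which are also endothelial, differed by 0.14 and 0.54 and were not called.

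Of 16 chemokine and receptor genes tested, 5 were called higher and 1 lower, and those above background in both groups had a median of -0.08. Ccl3, Ccl2 and Ccl4, attractants of monocytes, were above background on all TBI arrays and on no sham or naive array, and were at least 3.49, 3.35 and 2.33-fold higher (adjusted p = 0.0009161, 0.002043 and 0.007011). They entered the test through the TBI arrays only. Ccl3 read -2.19, -1.71, -2.73 and -1.92 in TBI and -5.68, -5.50 and -5.02 in sham. Of 8 listed genes above background in both groups, 1 was called higher and 1 lower, named here after their values were seen. Cxcl16, a scavenger chemokine of macrophages, rose by 1.65 ± 0.26. Cx3cl1, the neuronal ligand of Cx3cr1, read 4.12, 3.88, 4.11 and 4.08 against 4.73, 4.70 and 4.80 and fell by 0.70 ± 0.11 (adjusted p = 0.006326). Its fall was thus opposite to the rise of its receptor. With sham replicate 3 put back, 1 chemokine was called.

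Among Toll-like receptors and NF-kB genes, 6 of 12 above background in both groups were called higher, 12 of 24 tested in all, 6 without each of sham replicates 1, 2 and 4 or TBI replicates 1, 2 and 4, and 0 with sham replicate 3 put back. Tlr1 was at least 1.33-fold higher, Tlr7, a sensor of single-stranded RNA, rose by 1.79 ± 0.29, and Nlrp3, the inflammasome sensor, by 1.63 ± 0.21 (adjusted p = 0.01956, 0.007734 and 0.00294). Il1rn, the natural antagonist of interleukin 1, rose by 1.61 ± 0.36 (adjusted p = 0.02501). Of the 3 sham arrays, 1, 2 and 1 were above background for Tlr7, Nlrp3 and Il1rn, and with normexp background correction their differences were 0.83, 0.74 and 0.57. The NF-kB subunit Rela differed by 0.02 and was not called. Il6 was not above background on any of the 11 cortex arrays of the interval.

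Markers of lymphocytes and neutrophils were mostly at background. Of 25 T-cell genes on the array, 19 were above background throughout neither group, 3 throughout TBI only and 3 throughout both. The summed signal of the list was 2.60 to 5.09 in TBI, 2.05 to 2.37 in sham and 1.81 to 3.52 in naive. Cd3g was above background on all 4 TBI arrays and 0 sham arrays, at a difference of -0.14 that was not called, and Cd8b on 3 TBI arrays and 0 sham arrays. Nkg7, Gzmk, Cd247, Icos and Cd8a were also above background on some TBI array and on no sham array. Cd3g, Nkg7 and Gzmk were above background on some naive array too, while Cd8b, Cd247, Icos and Cd8a were on no naive array. Among the members above background on no TBI array were Cd2, Cd3e and Ifng. Of the members so absent from TBI, Cd3e, Foxp3 and Gzmb were above background on some naive array. The called T-cell gene was Cd4, which microglia and macrophages of the rat also express, and which rose by 1.22 ± 0.24 (adjusted p = 0.01586). Of the 10 B-cell genes, Cd22 and Blnk were called, the latter an adaptor at 1.95 ± 0.18 (adjusted p = 0.0008028). Among 13 neutrophil genes Csf3r was called (1.49 ± 0.30, adjusted p = 0.01891). Lcn2, lipocalin 2, differed by 1.85 ± 0.62 with overlapping groups (adjusted p = 0.0930), and Elane and Mmp8 were above background on no array.

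Reactive astrocyte genes gave 7 called higher of 14 above background in both groups (median 0.99), and 11 of 21 tested, 2 with sham replicate 3 put back, 5, 6 and 7 without sham replicate 1, 2 or 4, and 7 without TBI replicate 4. A2m, the protease inhibitor alpha-2-macroglobulin, read -0.23, 2.16, 0.04 and 0.47 against -2.28, -1.67 and -2.47. It rose 6.75-fold (2.75 ± 0.52, adjusted p = 0.01449), with replicate 2 highest. Aspg, an asparaginase, rose by 2.24 ± 0.37 and Vim, vimentin, by 1.06 ± 0.24 (adjusted p = 0.009035 and 0.0268). Gfap, the astrocyte filament, read 2.42, 2.96, 2.09 and 3.10 against 1.87, 2.08 and 0.28. All TBI arrays were above all sham arrays, but the sham spread was wide and the difference of 1.24 ± 0.54 was not called (adjusted p = 0.183). S100a6, a calcium-binding protein, rose by 0.64 ± 0.17 (adjusted p = 0.0453). Stat3, a transcription factor of astrocyte reactivity, differed by 0.18 ± 0.18.

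Of 17 scar and matrix genes above background in both groups, 2 were called higher: Tgfb1 (1.62 ± 0.30) and Mmp2, a gelatinase (1.07 ± 0.20). Their adjusted p was 0.01396 and 0.01557. The list's count was 0 without sham replicate 2 or with sham replicate 3 put back, 3 without TBI replicate 1, and 5 without TBI replicate 3. The collagens Col1a1, Col1a2 and Col3a1 differed by 0.27, 0.00 and -0.07 and were not called.

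Lysosomal genes rose in 13 of 22 cases above background in both groups (median 0.67), and in 16 of 25 tested, 4 with sham replicate 3 put back. Npc2, a lysosomal cholesterol carrier, read 4.12, 4.17, 3.65 and 4.32 in TBI and 2.57, 2.32 and 2.37 in sham. The groups lay well apart, and the rise was 3.13-fold (1.65 ± 0.17, adjusted p = 0.001164). Grn, progranulin, rose by 1.59 ± 0.18, and the cathepsins Ctsd and Ctss rose by 1.19 ± 0.13 and 1.37 ± 0.20 (adjusted p = 0.001854, 0.001356 and 0.004865). Pros1, a bridge between dying cells and phagocytes, was at least 1.63-fold higher (adjusted p = 0.008792).

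Of 11 iron and heme genes above background in both groups, 3 were called higher. Hmox1, the heme-degrading enzyme, rose by 1.39 ± 0.25, Cp, ceruloplasmin, by 1.26 ± 0.29 and Ftl1, ferritin light chain, by 0.46 ± 0.12 (adjusted p = 0.01299, 0.02724 and 0.04257). Slc11a1, an iron transporter of phagosomes, was called at 1.26 ± 0.33, with 1 of 3 sham arrays above background and overlapping groups (adjusted p = 0.04498). All 4 calls were lost when sham replicate 1 was left out or replicate 3 put back.

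Cell-cycle genes were dim. Of 6 above background in both groups, Pcna, the polymerase clamp, was called at 0.36 ± 0.10, and 5 of 16 tested in all, 2 without TBI replicate 2 or 4, 3 without sham replicate 1, 2 or 4, TBI replicate 1 or 3 or naive replicate 1, 8 without naive replicate 4 and 0 with sham replicate 3 put back. Cdk1, the mitotic kinase, read -2.72, -2.36, -2.49 and -2.21 in TBI, -3.79, -3.34 and -4.10 in sham and -2.73, -2.83, -2.62 and -2.82 in naive. Its rise of 1.30 ± 0.17 against sham (adjusted p = 0.003927) rested on 2 of 3 sham arrays above background, and the lowest TBI array lay within the naive range. Mcm3 was at least 1.51-fold higher than sham (adjusted p = 0.004258).

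**Figure D4:**
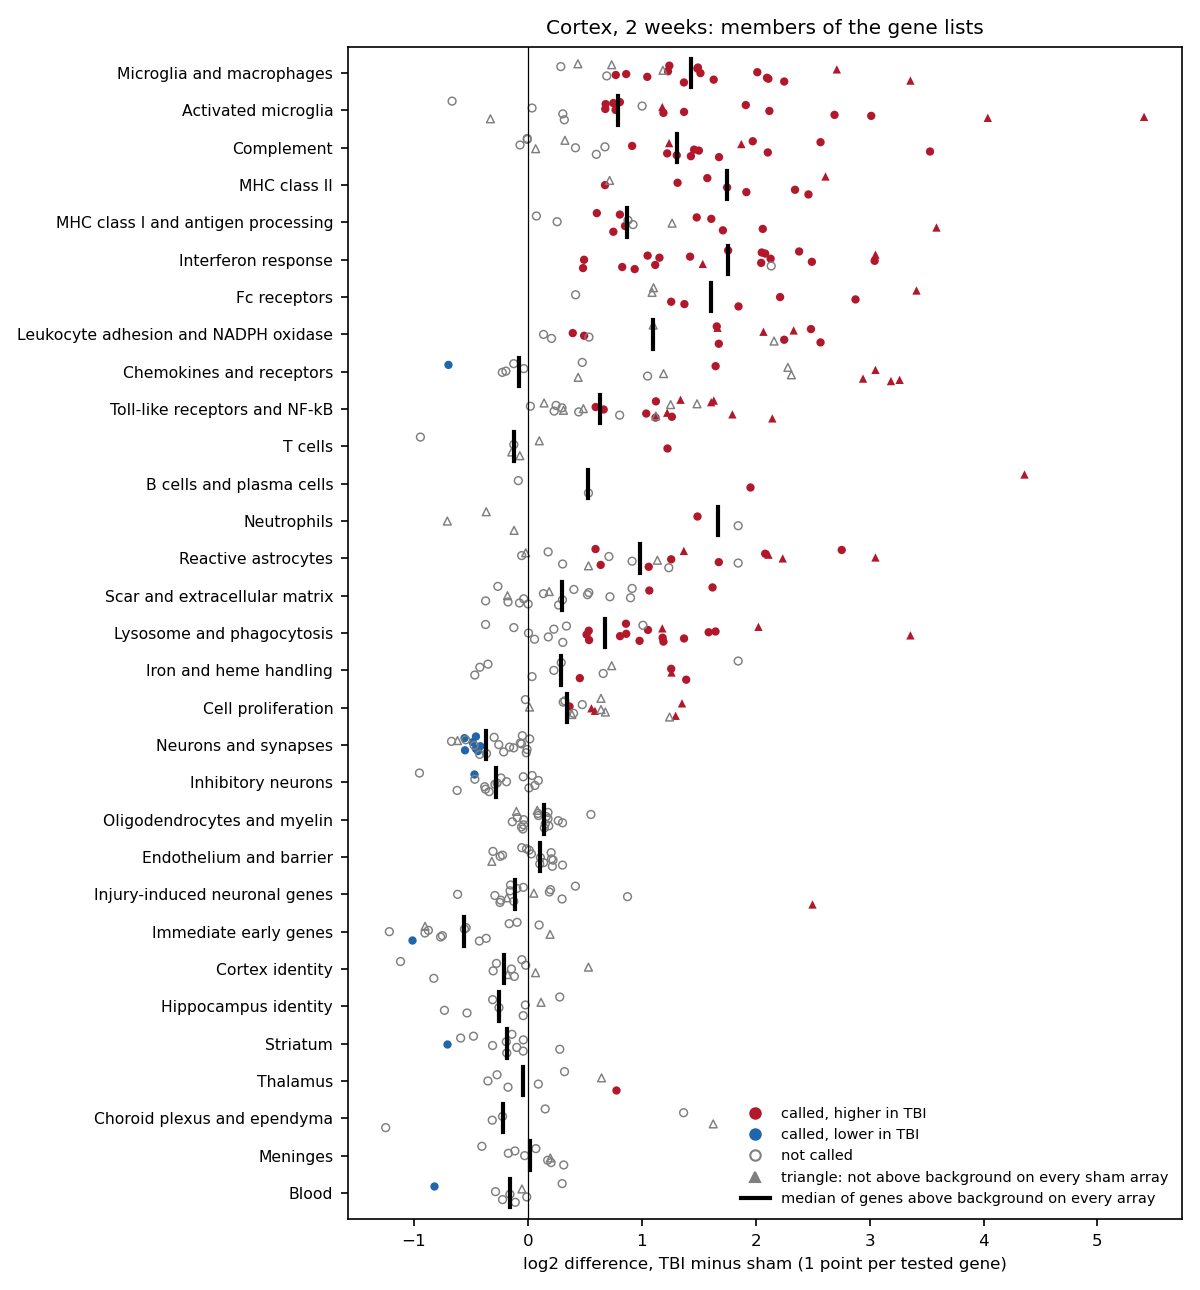
Log2 difference between TBI and sham for each tested member of the gene lists (1 row per list, 1 point per gene): red called higher, blue called lower, open not called, triangles not above background on every sham array, black bars the median of the members above background on every array of both groups. The microglial, complement, MHC, interferon and Fc receptor lists lie mostly right of 0, with medians of 1.43 for microglia and 1.76 for the interferon response, while neurons lie left of it, with a median of -0.36.

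Neuronal and synaptic genes were lower by small amounts. Of 23 listed genes above background in both groups, 7 were called lower and 0 higher, with a median of -0.36 against -0.05 for all named genes so measured. The count was 0 when arrays were scaled to the median of all probes (median of the 24 tested -0.34) and 0 with sham replicate 3 put back (median -0.00), 1, 4 and 1 without sham replicate 1, 2 or 4, and 2 and 3 without TBI replicate 2 or 4. The summed relative signal of the list was 234, 198, 241 and 231 in TBI, 280, 270 and 283 in sham and 283, 274, 254 and 265 in naive. The highest TBI sum was below the lowest sham and naive sums, in the same tissue in which the microglial sum was higher. The part of a changed cell mixture in these falls was not tested.

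Camk2a, a kinase of excitatory synapses, read 0.73, 0.37, 0.53 and 0.36 against 1.15, 0.87 and 1.14 and fell 1.47-fold (-0.56 ± 0.13, adjusted p = 0.0289). Nefh, the heavy neurofilament of large axons, read 1.28, 0.96, 1.13 and 1.27 against 1.75, 1.75 and 1.63 (-0.55 ± 0.10, adjusted p = 0.01172). Neither gene overlapped between groups. Grin1, the obligate NMDA-receptor subunit, fell by 0.48 ± 0.11 and Syn1, a synaptic-vesicle protein, by 0.46 ± 0.10 (adjusted p = 0.02327 and 0.02577). Map2 and Syp, also in the list, each differed by -0.01 and were not called. Of 16 genes of inhibitory neurons, only Gabbr1, a GABA-B receptor subunit, was called, at -0.47 ± 0.08 (adjusted p = 0.01023). Camk2a, Syn1 and Gabbr1 each had another tested probe, at -0.28, -0.44 and -0.27, that was not called. Pvalb, of fast-spiking interneurons, differed by 0.01.

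Immediate early genes, which report recent activity, had a median of -0.56 over 13 genes above background in both groups, with 1 called. Fosb read -1.94, -1.99, -1.64 and -1.60 in TBI, -1.0, -0.86 and -0.47 in sham and -1.18, -1.55, -1.77 and -0.53 in naive. It fell by 1.02 ± 0.26 against sham (adjusted p = 0.04281), while its TBI and naive values overlapped. No gene of the list was called when any of the sham or TBI arrays or naive replicate 1 was left out. Fosb passed in 9 of 21 alternative settings, not counting the one with no filter on dim probes. Arc, a synaptic plasticity gene, differed by -1.22 ± 0.44 and overlapped (adjusted p = 0.116).

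Myelin and vessel genes did not pass the test: 0 of 17 oligodendrocyte genes and 0 of 15 endothelial genes above background in both groups were called, with medians of 0.14 and 0.10. Mbp, myelin basic protein, differed by -0.04 ± 0.19 and Cldn5, the tight-junction claudin, by 0.21 ± 0.17. Of 14 genes that injured neurons can induce, 0 were called among those above background in both groups. Atf3, an injury-induced transcription factor, was above background in TBI on 4 arrays, in sham on 0 and in naive on 3, and was at least 1.85-fold higher than sham (adjusted p = 0.03914). No gene of the list was called higher without sham replicate 1, 2 or 4, TBI replicate 1, 2 or 4 or naive replicate 2. Atf3 passed in 10 of 20 alternative settings, not counting the one with no filter on dim probes. Its naive values, -3.05, -4.27, -5.11 and -5.88, overlapped with the TBI values of -3.41, -1.80, -3.82 and -3.17.

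The named genes with the largest falls, among those without overlap, were mixed in kind. Agrp, an appetite neuropeptide, fell by 1.09 ± 0.24, Camkk2, a calcium-dependent kinase, by 1.03 ± 0.25 and Fosb by 1.02. Inhba, an activin subunit, read -1.20, -1.21, -1.43 and -0.79 in TBI, -0.23, 0.07 and -0.34 in sham and -0.69, -1.27, -1.41 and -0.86 in naive. Its fall of 0.99 ± 0.20 against sham (adjusted p = 0.01843) left TBI and naive values overlapping. Fbxl22, Adrb3, Syt12, Plxdc1 and Wnt10a fell by 0.98, 0.97, 0.95, 0.90 and 0.89 (adjusted p = 0.00454 to 0.02555). Wnt10a, a secreted signaling protein, read 0.76, -0.05, 0.31 and 0.17 against 1.33, 1.11 and 1.13. Camkk2 varied most among TBI rats, at 0.92, 0.16, 1.24 and 0.07 against 1.56, 1.66 and 1.66.

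Growth-factor and receptor genes that the study singled out were mostly not called here. Bdnf, a neurotrophin, read -3.01, -3.07, -2.43 and -2.69 in TBI and -2.48, -1.89 and -2.19 in sham. Its difference of -0.62 ± 0.19 overlapped by 1 array and missed the threshold (adjusted p = 0.0729). Bcl3, an NF-kB cofactor, differed by 1.25 ± 0.40 without overlap (adjusted p = 0.0813). The dopamine receptors Drd1 and Drd2 and the factor Creb5 differed by -0.19, -0.04 and -0.16, with adjusted p of 0.653 to 0.902. Ngfr, the low-affinity neurotrophin receptor, was above background on 0 sham arrays and all 4 TBI arrays. Its difference of 0.05 ± 0.45, from sham signal below background, was not called (adjusted p = 0.958).

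Identity genes of the cortex were present on the TBI arrays, with all 11 measured above background on each. Their summed signal was 9.16 to 14.6 in TBI, 12.0 to 13.6 in sham and 15.1 to 17.3 in naive, and 0 of 8 above background in both groups were called. Genes of neighboring tissue were checked in the same way. The hippocampal genes Lct, Tdo2 and Iyd were above background on no array, and 0 of 7 hippocampal, 0 of 5 choroid plexus and 0 of 8 meningeal genes above background in both groups were called. The striatal list held 1 called gene, the phosphodiesterase Pde10a, at 2.45, 2.34, 2.39 and 2.41 in TBI, 3.13, 3.24 and 2.95 in sham and 2.46, 2.61, 2.39 and 2.23 in naive. Its fall of 0.71 ± 0.10 against sham (adjusted p = 0.005329) left TBI within the naive range. The thalamic list held 1 called gene, Prkcd (0.78 ± 0.17), and the blood list 1, Ahsp (-0.82 ± 0.18). The summed striatal signal was 25.6 to 31.5 in TBI, 34.9 to 36.2 in sham and 28.1 to 31.3 in naive.

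The same contrast was measured at other intervals. For each list, the members were those above background on every TBI and sham cortex array at 2 weeks. The microglial list held 16 of them, with 15 measured at 24 hr and at 3 months. Its median was 1.43 at 2 weeks, 0.30 at 24 hr, 0.19 at 3 months, 0.30 at 6 months and -0.02 at 1 year. For the interferon list it was 1.76, 0.56, -0.03, 0.26 and -0.16, for complement 1.31, 0.22, 0.30, 0.45 and 0.01, and for neurons -0.36, -0.18, -0.04, -0.23 and -0.00. For reactive astrocytes the median was 0.99 at 2 weeks and 1.14 at 24 hr, and for the 2 neutrophil genes 1.67 and 2.11. These rows of medians compare different rats on different slides and carry no test. The difference of the TBI effect between 2 weeks and 24 hr was tested in 1 limma fit, and 64 of 25788 probes (0.248%) passed, 48 with the effect higher (0.186%) and 16 with it lower (0.062%) at 2 weeks.

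Of the list of microglial and macrophage genes, 6 of 21 tested had a higher effect at 2 weeks than at 24 hr, against 0.186% of all probes. The activated-microglia list held 3 of 21, the lysosomal list 4 of 24 and the T-cell list 1 of 15 (Cd4), and 0 genes passed in the complement, MHC, interferon, Fc receptor, adhesion, chemokine and astrocyte lists. Igf1, of the activated list, was -0.24 at 24 hr and 1.91 at 2 weeks, a difference of 2.15 ± 0.18 (adjusted p = 3.785e-06). Tmem119 was -0.86 at 24 hr and 0.77 at 2 weeks (difference 1.63, adjusted p = 0.04816), and Trem2, Csf1r and Cx3cr1 differed by 1.69, 1.4 and 0.92 (adjusted p = 0.0137, 0.01488 and 0.03446). Npc2, of the lysosomal list, was -0.04 at 24 hr and 1.65 at 2 weeks (difference 1.68, adjusted p = 0.01442). Gpnmb, Lgals3, Ccl2 and Ccl3 already read 2.08, 2.18, 3.26 and 3.22 at 24 hr, and their differences between intervals did not pass (adjusted p = 0.684, 0.888, 0.992 and 0.992). The total of 64 was 29, 18 and 18 without 2-week sham replicate 1, 2 or 4, 14, 34, 141 and 22 without 2-week TBI replicate 1, 2, 3 or 4, 17, 22 and 42 without 24 hr sham replicate 2, 3 or 4, and 34 without 24 hr TBI replicate 4.

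In the hippocampus at 2 weeks the microglial, interferon, complement and MHC class II lists also had medians above 0, and few differences between the tissues passed. The medians in cortex and hippocampus were 1.43 and 0.82 for microglial genes, 1.76 and 0.82 for the interferon list, 1.31 and 1.07 for complement and 1.75 and 2.48 for MHC class II. Cortex and hippocampus arrays of the same group and replicate number were assumed to come from 1 rat, which was a random block. In that fit, 13 of 25041 probes (0.0519%) differed in their TBI effect between the tissues, and 0 of the genes in the lists. The effect was higher in cortex for 7 (0.028%) and lower for 6 (0.024%). Hippocampal sham and TBI arrays shared a slide, while those of cortex were on separate slides scanned on another day. Tissue and slide therefore cannot be told apart in this difference. Cd74 was 2.46 ± 0.42 in cortex and 3.97 ± 0.57 in hippocampus (adjusted p of the difference 0.325), and Mx1 3.04 ± 0.38 and 1.4 ± 0.30 (0.157). Neuronal genes had a median of -0.36 in cortex and -0.13 in hippocampus. The named genes that passed were Smc2, a condensin subunit (0.68 in cortex, -0.14 in hippocampus, adjusted p = 0.0494), Lpcat4, a phospholipid acyltransferase (-0.66 and -0.09, adjusted p = 0.0494), and Abcb8, a mitochondrial transporter (-0.31 and 0.10, adjusted p = 0.0475). The total of 13 was 1 without cortex sham replicate 2, 3, 45 and 3 without cortex TBI replicate 2, 3 or 4, 31, 3, 5 and 0 without hippocampal sham replicate 1, 2, 3 or 4, and 0, 5 and 4 without hippocampal TBI replicate 1, 2 or 3.

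**Figure D5:**
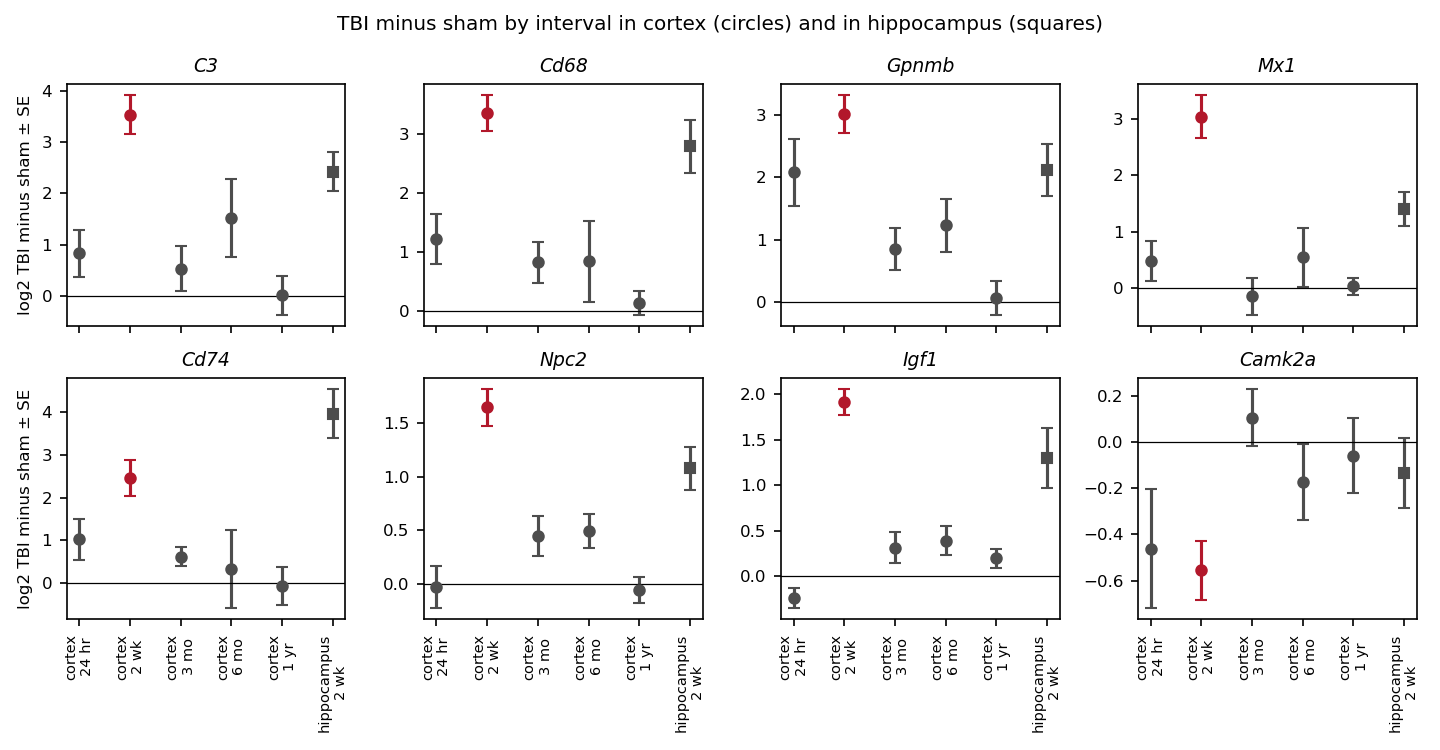
Log2 difference between TBI and sham (point) with its limma SE (bar) for 8 genes in the cortex at 24 hr, 2 weeks (red), 3 months, 6 months and 1 year (circles) and in the hippocampus at 2 weeks (squares). The 2-week cortex point is the highest of the cortex points in the first 7 panels, as for C3 at 3.53, and Camk2a lies at -0.56 in that interval. All 8 genes were called at 2 weeks, and Igf1 and Npc2 also passed the test of 2 weeks against 24 hr. A large 2-week difference was thus favored by the choice of genes.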

How the data were processed

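Cortex RNA was hybridized by the authors to Agilent 1-color 8x60K arrays and read with Feature Extraction 11.5.1.1; the deposited values used here are processed signal intensities, background-corrected by that program and not normalized between arrays. The authors' deposited table of scaled intensities, taken to log2 here, served as an alternative, and 0 columns belonged to other samples. The log2 intensity minus the array's median over probes well above background on all arrays of the fit was tested with limma 3.58.1 (lmFit and eBayes) in R 4.3.3, with naive arrays in the fit and Benjamini-Hochberg adjustment at 0.05. A probe was tested if well above background on every TBI or every sham array. Between tissues the rat, assumed to be shared by arrays of the same group and replicate number, was a random block. Of 45598 probes, 46.3% were named through RefSeq transcripts, and a gene was read from its brightest probe. Named genes were the 10 largest rises and falls without overlap, up to 4 called members of each list (or its 2 brightest), and genes the study named. Other list members were named after their values were seen. Of the called genes under the naming rule, 16 had several tested probes. In all 16 the probes changed in the same direction, and in 9 every probe was called. Lists and members were chosen with earlier results of these data known. Each replicate was a separate rat. On simulated data with 25 changed probes per size, the test recovered 21 at a log2 change of 1, 15 at -1, 17 at -0.75, 5 at 0.5 and 2 at -0.5. The simulated noise was the same for rises and falls, and a smaller share of probes was changed than was called in the data. The number of arrays limits the precision. Alternatives were other scalings, normexp background correction on the median signal with an offset of 50, other filters, the replicate number as a block, sham replicate 3 put back and each replicate left out. Files holding other intervals entered only the comparisons between intervals. Some genes that the naming rule selects are not reported here.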

Additional observations from a re-analysis of the deposited data

Results flagged for a closer look

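In the groups of 4 arrays, a lone array stood apart when its gap to the next, as a share of the group's range, exceeded Dixon's critical value, which chance gives in about 1 of 20 groups. Among the TBI groups of 145 genes this happened 9 times. TBI replicate 3 stood apart in F10 (0.894), Ncf1 (0.837), Slc2a1 (0.833), Neurod6 (0.86), Csf1r (0.865), Aif1 (0.852), C1qb (0.92) and Epsti1 (0.951), and TBI replicate 1 in Ptx3 (0.848). Among the naive groups, replicate 2 stood apart in C3 (0.859), Itgam (0.889) and Ahsp (0.874), replicate 3 in Camk2a (0.901), Ptgds (0.855) and Vim (0.892), and replicate 4 in Ntrk2 (0.849), Stat3 (0.925) and Gpr34 (0.863).

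The TBI effect differed between 2 weeks and 24 hr, by the limma interaction, in these genes (log2, 2 weeks minus 24 hr). It was higher at 2 weeks in Cstdc2 (3.42), Mrgprx3 (2.29), Cyp2d1 (2.21), Epsti1 (2.21), Igf1 (2.15), Trem2 (1.69), Npc2 (1.68), Tmem119 (1.63), Laptm5 (1.56), Ctss (1.48), Cd4 (1.44), Csf1r (1.4), Gpr34 (1.30), Ctsh (1.16), Cx3cr1 (0.92) and Ctsd (0.83). It was lower in Trip13 (-3.16), Lrfn2 (-1.18), Panx1 (-1.0), Cpeb1 (-0.96) and Gpr83 (-0.73), with Trip13 not above background on any 2-week array. Cstdc2 did not pass the background filter at 24 hr, so its value there has no measured level. Between cortex and hippocampus it was higher in cortex in Smc2 (0.80) and lower in Lpcat4 (-0.58) and Abcb8 (-0.41).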

How the results depend on the processing

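Of the 109 named genes called, 24 were called in every counted setting that tested them (20 or 21), among them C3, Cd68, Gpnmb, Mx1, Fcgr2b and Npc2. The settings so counted leave out the one with no filter on dim probes, in which 56 of the 109 kept their call. With sham replicate 3 put back 30 of the 109 kept their call, and with arrays scaled to the median of all probes 70 did. The TBI against sham calls (total, higher, lower) were 509, 502 and 7 under that scaling, 304, 265 and 39 with no filter on dim probes, and 104, 103 and 1 with sham replicate 3 put back. With the replicate number as a block, which the correlations of same-numbered TBI and sham arrays (0.0259, 0.0388 and 0.125) do not show to pair rats, the falls numbered 406 and the total 1402. The share of rises was 57.1% as reported, 98.6% with the median of all probes, 69.9% with the 75th percentile of detected probes, 43.5% with normexp and 45.7% when every array of both groups had to be above background. Leaving out single replicates gave totals of 619 to 2740, rises of 469 to 1534 and falls of 138 to 1206.

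Sham against naive gave 28 calls with the median of all probes, 1184 by a fold of 1.4 and unadjusted p, and 0 with the 75th percentile of detected probes, quantile normalization, no filter, the replicate block or only the 2 groups compared, and 0 to 1 with a replicate left out. The tissue difference gave 0 with the median of all probes, no filter or sham replicate 3 put back, 21 with the 75th percentile of detected probes, 38 with quantile normalization, 2 with normexp, 44 with the stricter filter, 4 without the replicate block, 1221 by fold and unadjusted p, and 0 to 45 with a replicate left out. The difference from 24 hr gave 8, 4 and 6 with the median of all probes, no filter and sham replicate 3 put back, 1753 by fold and unadjusted p, 62 with the replicate block, and 14 to 141 with a replicate left out. Bub1 turned from 0.56 to -0.0692 with normexp and to -0.0336 with sham replicate 3 put back. The causes were not tested.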
